A study of Drosophila melanogaster with 4 samples.

Results

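The chromosome arm 3R of Drosophila melanogaster carried 524 regions that dRING chromatin immunoprecipitation marked in 2 of 2 libraries, out of 1775 regions listed for the arm and 7386 on the 6 main arms. dRING is the product of the gene Sce. The libraries came from wild-type Oregon-R embryos aged 14 to 16 h, and the antibody, named dRING Q3200 in the labels, was the same in both. Every sample is listed with 1.8% formaldehyde and an antibody incubation of 15 h. Each ChIP library had an input library of its own, and the groups therefore were 2 ChIP and 2 input libraries of the same stage and genotype. No perturbed or mutant sample was part of the comparison, whole embryos mix many cell types, and the labels do not say if the replicates came from separate collections of embryos, and differences between them may be technical. The 524 regions were chosen by position alone: a region of the series list belonged when a cluster of replicate 1 and a cluster of replicate 2 each overlapped it by at least 1 bp. Here "cluster" means an enriched interval of a single library and "region" an interval of the list made for the whole series. Their scores and lengths come from the same lists and are given as descriptions, with no test.

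dRING is a RING-finger protein of Polycomb repressive complex 1 (PRC1), and it places the single ubiquitin on histone H2A that marks Polycomb-repressed chromatin. In flies, PRC1 is brought to DNA at short Polycomb response elements and from there can spread over silenced genes, so that both narrow sites and wide blankets of Polycomb proteins are known. The best known targets are the homeotic genes, which give body segments their identity. Both homeotic complexes lie on 3R, as does the gene for dRING itself, Sce. In the release 6 gene table of RefSeq the Antennapedia complex comes first, with lab, pb, Dfd, Scr and Antp among its genes, and the bithorax complex follows with Ubx, abd-A and Abd-B. The deposited positions are in FlyBase release 5 and were not converted, so no region below is assigned to a gene.

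On 3R, 524 of 1775 listed regions (29.5%, exact 95% interval 27.4 to 31.7%, counting error only) were overlapped in both libraries. Over all 6 main arms the percentage was 28.4, and the shares are close. A further 302 regions of 3R met a cluster of replicate 1 only, 134 met one of replicate 2 only, and 815 met neither. The replicated regions covered 2.29 Mb, or 8.20% of the arm, and held 53.9% of all bases listed on it. Their median score was 0.63, with quartiles of 0.47 and 1.02. Regions met in replicate 1 only had a median score of 0.38, those met in replicate 2 only 0.35, and those met in neither 0.39. The score is the authors' own, with no stated scale. The libraries differed in how much they marked. Replicate 1 had 888 clusters on 3R covering 9.07% of the arm, and 573 of them (64.5%) touched a replicated region. Replicate 2 had 763 clusters covering 6.49%, and 618 of them (81.0%) did so. Asking for a cluster of replicate 1 alone, that is without replicate 2, would give 826 regions, and asking for replicate 2 alone 658. Counting only clusters at or above the median score of their own list would leave 260 regions, with a median score of 1.02.

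All 24 clusters of replicate 1 on this arm with a score of 2 or more overlapped a replicated region, as did all 50 of replicate 2. At the edge of the rule, the least covered member ran from 24388669 to 24396404 and was covered to 61.8% in replicate 1 and 17.7% in replicate 2. The next had 76.4% and 18.0% (3974803 to 3984800) and 82.3% and 19.9% (12565698 to 12583083). Just outside the rule, the region from 905671 to 909640 was covered to 41.7% in replicate 1 and missed the nearest replicate 2 cluster by 13 bp. The regions from 12625361 to 12630328 and from 255533 to 257257 missed one by 23 and 44 bp. The members just inside the rule had scores of 0.38 to 0.67 and those just outside 0.37 to 0.41.

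Most replicated regions were short, and a small number of long ones held much of the covered sequence. Lengths ran from 1509 to 49083 bp, with a median of 2705.5 bp and quartiles of 2147 and 4312 bp. Regions of 2 to 3 kb were the most frequent class, with 256 of the 524 (48.9%), and they held 26.0% of the bases. The 39 regions of 10 kb or longer were 7.44% of the members and held 30.9% of the bases. Longer classes had higher median scores. The median was 0.35 in the 44 regions under 2 kb, 0.62 from 2 to 3 kb, 0.63 from 3 to 5 kb, 0.84 from 5 to 10 kb and 1.03 from 10 kb. The highest scores did not follow this: 19 of the 30 regions with 2 or more were 2 to 3 kb long, 9 were 3 to 5 kb, 2 were 5 to 10 kb, and none was under 2 kb or reached 10 kb. Across the 524 regions Spearman's rho of length and score was 0.43, as a description over regions that share the same libraries.

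**Figure D1:**
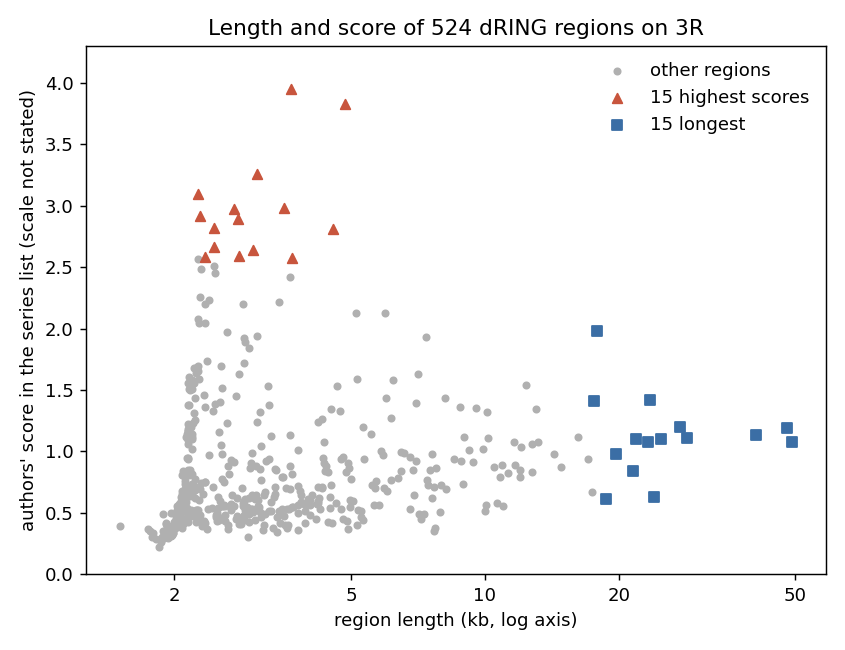
Length (kb, log axis) against the authors' score in the series list for the 524 replicated regions of 3R, 1 point per region, with the 15 highest scores as triangles and the 15 longest as squares. The 15 strongest lie between 2.26 and 4.84 kb and the 15 longest between 17.6 and 49.1 kb, and no region belongs to both sets.

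The 15 strongest sites were narrow, and 14 of them were a single cluster in each library. The strongest ran from 5932986 to 5936645, was 3.66 kb long, and had a series score of 3.95, with 3.71 in replicate 1 and 4.26 in replicate 2. Next came the site from 9841393 to 9846231, the longest of the 15 at 4.84 kb, whose cluster scores were 3.99 and 4.35. These are the 2 highest scores of the arm in either library. The site from 19170758 to 19173833 had 3.45 and 3.97, and the site from 15333790 to 15336050, the shortest of the set at 2.26 kb, had 2.90 and 3.34. At 1924498 to 1928026 the libraries gave 2.92 and 3.46, but replicate 1 covered 67.9% of the region and replicate 2 covered 99.4%. Replicate 2 gave the higher score at all 15, by 0.18 to 1.74, and it did so in 74.0% of the 524 regions.

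Of the remaining strong sites, the one from 14619864 to 14622150 had the widest gap between libraries, with 1.96 in replicate 1 and 3.69 in replicate 2. The site from 19158857 to 19161576 had 2.90 and 3.22 and stood 9.18 kb from the third strongest, so that these form a close pair. A second pair was made by the sites from 9806876 to 9810556 (2.56 and 2.96) and from 9841393 to 9846231, with 30.8 kb between them. All other strong sites were at least 711.6 kb from the next of the 15. The site from 12042495 to 12045273 (2.60 and 3.23) was the only one of the 15 inside 1 of the 6 domains with the most covered bases, described below. Further sites lay from 8420354 to 8422808 (2.41 and 3.19), from 20809818 to 20812271 (2.59 and 2.77) and from 10955628 to 10958637 (2.50 and 3.11). The last 2 of these 3 had no other replicated region within 88.3 and 104.5 kb. Another lay from 26027674 to 26030474 (2.32 and 2.96) and another from 13768547 to 13770893 (2.52 and 2.69). The region from 22083771 to 22088333 was the exception to the single cluster, with 1 cluster in replicate 1 (2.62) and 2 in replicate 2 (highest 3.24).

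The 15 longest regions spanned 17.6 to 49.1 kb each and 407 kb together, which was 17.8% of all replicated bases on the arm. Their series scores ran from 0.61 to 1.98. The longest ran from 12753765 to 12802847 (49.1 kb). Replicate 1 covered 92.7% of it in 3 clusters with scores up to 1.32, and replicate 2 covered 60.9% in 8 clusters with scores up to 1.88. The second, from 652030 to 699814 (47.8 kb), was covered to 99.7% in 2 clusters of replicate 1 and to 61.9% in 7 clusters of replicate 2, with highest scores of 1.43 and 1.54. The third, from 12688922 to 12729749 (40.8 kb), had 2 clusters and 95.7% cover in replicate 1 against 8 clusters and 63.3% in replicate 2. The replicate 2 clusters in it were 1.32 to 6.01 kb long and differed widely in score, from 0.27 to 1.83, while the 2 of replicate 1 had 1.24 and 1.32.

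The same contrast held down most of the list. The region from 2808769 to 2832357 contained the highest score of any of the 15: a replicate 2 cluster of 4.60 kb, from 2823720 to 2828314, with 3.01. The 17.3 kb cluster of replicate 1 around it had 1.70. In the region from 12661259 to 12688784, a 7.38 kb cluster of replicate 2 had 2.32, and the 25.2 kb cluster of replicate 1 over the same bases had 1.29. The region from 17279443 to 17303516 was one of 3 in which replicate 1 gave the higher score (1.16 against 0.78), but its strongest replicate 1 cluster began in the neighbouring region, at 17252191. The other 2 were the regions from 25374745 to 25394517 (1.11 against 1.06) and from 2774902 to 2793659 (0.91 against 0.84). One long region stood apart from the rest. From 12064280 to 12082131, both libraries had a single cluster, of 17.4 and 17.8 kb, cover was 97.6% and 99.3%, and the scores were 1.70 and 2.31. It was the only one of the 15 that replicate 2 covered more fully.

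Cover by each library was then followed over all lengths. In regions of 2 to 3 kb, clusters of replicate 1 covered 89.1% ± 12.1 of a region and those of replicate 2 covered 88.9% ± 13.4 (mean and SD over 256 regions). From 3 to 5 kb the means were 77.9% and 68.7%, and from 5 to 10 kb they were 80.8% and 62.0%. From 10 kb upward, cover was 91.0% ± 9.53 in replicate 1 and 54.1% ± 17.2 in replicate 2. The difference there was 36.9 ± 15.4 percentage points (mean and SD, 39 regions), with replicate 1 ahead in 38 of the 39. These 39 regions were overlapped by 63 clusters of replicate 1 and 101 of replicate 2, each cluster counted once. Regions are not replicates, there was 1 library on each side, and the depth of the libraries is unknown, so the part of depth or of the calling in this difference was not tested. Long regions of other arms gave differences of 32.9 ± 14.6 points on 2L (21 regions), 30.9 ± 19.3 on 3L (11 regions) and 32.0 ± 19.9 on X (15 regions). On 2R the difference was 36.8 ± 17.8 (18 regions) and on 4 it was 42.0 ± 31.0 (2 regions). The 3R value lies within the SD of each.

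**Figure D2:**
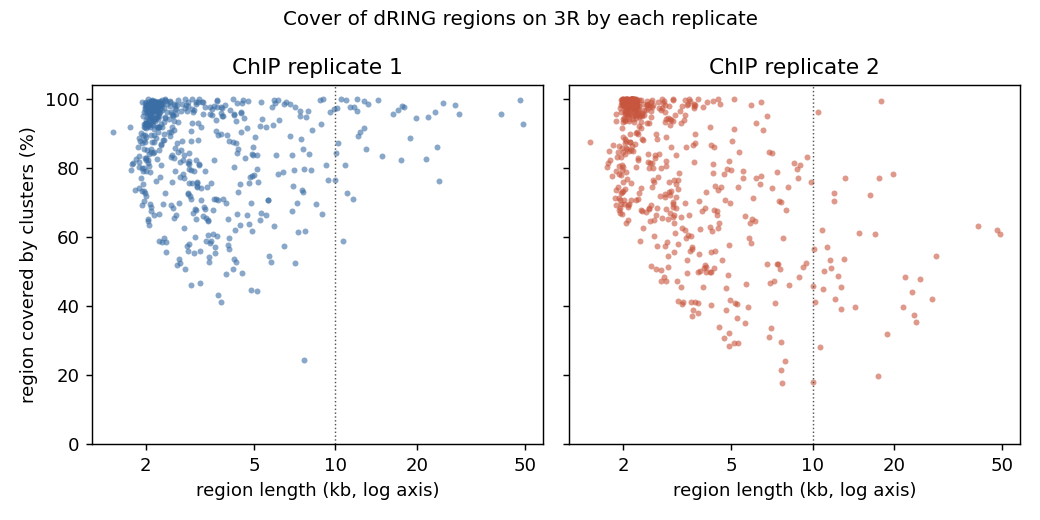
Percent of each replicated region of 3R that clusters of replicate 1 (left) or replicate 2 (right) covered, against region length (kb, log axis), 1 point per region, with a dotted line at 10 kb. Right of the line replicate 1 averages 91.0% and replicate 2 averages 54.1%, while from 2 to 3 kb both are near 89%.

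Scores of the libraries followed each other over the replicated regions, which leave out those met in 1 library only. With the highest cluster score of each library taken per region, the median was 0.69 in replicate 1 and 0.78 in replicate 2, and the median SD of the 2 values of a region was 0.11 (n = 2 libraries). Replicate 2 was higher in 388 of 524 regions (74.0%), with a median difference of 0.13 and quartiles of -0.004 and 0.30. The same share was 73.1% on 2L, 79.9% on 2R, 78.3% on 3L, 79.9% on X and 20% on 4 (15 regions). Spearman's rho between the libraries was 0.82 over 524 regions, as a description. It was 0.77 on 2L, 0.81 on 2R, 0.87 on 3L, 0.86 on X and 0.85 on 4. The series score lay between the 2 library scores in 240 regions and below both in 284, and never above both. The 3 lists may not share a scale of scores, so the differences describe the lists.

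The regions that differed most between libraries were narrow and higher in replicate 2. From 13988738 to 13990998 the scores were 1.14 in replicate 1 and 2.96 in replicate 2, although the cluster centres lay only 8.5 bp apart. The site from 14619864 to 14622150, named above, came second with a difference of 1.74. From 11700514 to 11702663 they were 0.42 and 1.92, with centres 10.5 bp apart. Differences toward replicate 1 were smaller. The largest was -0.38, from 12238479 to 12242922 (1.14 and 0.76), followed by -0.37 in the region from 17279443 to 17303516 and -0.36 from 14192217 to 14200178 (0.98 and 0.62).

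**Figure D3:**
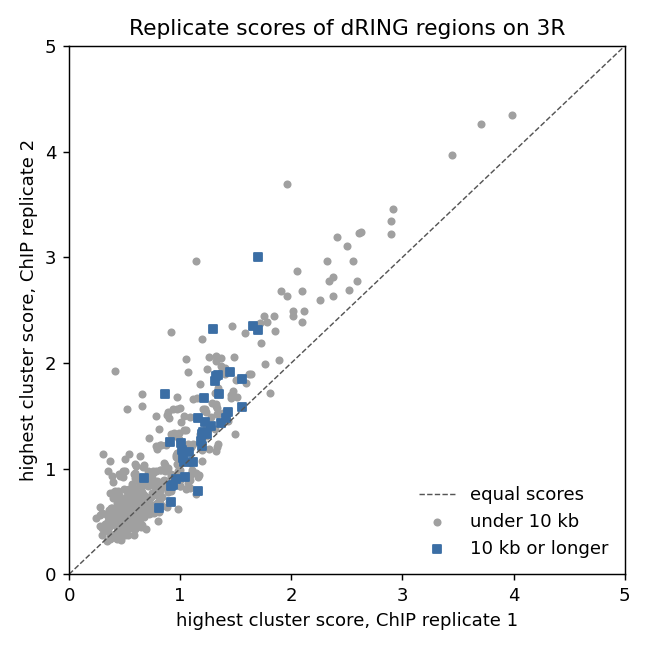
Highest cluster score of replicate 2 against that of replicate 1 for each of the 524 replicated regions of 3R, with regions of 10 kb or longer as squares and the line of equal scores dashed. Points lie above the line in 388 regions, and the 3 farthest to the right are the sites with 3.99, 3.71 and 3.45 in replicate 1.

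Where each library had a single cluster, both clusters met the same region by the rule. The distances between them were limited by that choice and are given as descriptions. In 447 regions (85.3%) each library had exactly 1 cluster. The centres of these paired clusters were a median of 85 bp apart (quartiles 24.8 and 236 bp), and in 241 of the 447 (53.9%) they were within 100 bp. Starts differed by a median of 92 bp and ends by 93 bp. The replicate 1 cluster was the longer in 244 pairs and the replicate 2 cluster in 202, and the median difference in length was 14 bp. In 52 pairs the centres were over 500 bp apart, and in 2 regions the clusters of the 2 libraries shared no base. Among the 14 strong sites with single clusters, 10 had centres within 100 bp.

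The regions were spread along the whole arm, with a few dense stretches. Coordinates of 3R run from the centromere toward the telomere. In the 27 full bins of 1 Mb the number of replicated regions ran from 7 to 42, with a median of 18, and the median covered length was 70.3 kb. The bin from 12 to 13 Mb had the most, with 42 regions covering 370.4 kb (37.0% of the bin). The bin from 2 to 3 Mb followed with 34 regions and 207.7 kb. The bin from 17 to 18 Mb had 27 regions and 167 kb. These 3 bins held 32.6% of all replicated bases and 103 of the 524 regions. Without them 6.19% of the arm was covered, in place of 8.20%, at 16.9 regions per Mb in place of 18.8. The fewest regions were from 22 to 23 Mb, with 7, and from 15 to 16 Mb, with 8 covering 18.1 kb. Each of these 2 bins held 1 of the 15 strongest sites, with scores of 2.81 and 3.10. The next 2 sparsest full bins did not: the highest score was 1.58 from 23 to 24 Mb (11 regions) and 0.95 from 16 to 17 Mb (12 regions), the lowest maximum of any bin. Of the bins with 13 regions, those from 10 to 11 Mb and from 20 to 21 Mb did (2.64 and 2.66). Those from 18 to 19 Mb and from 24 to 25 Mb did not (2.51 and 2.57).

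In 4 equal parts of the arm, counted from the centromere, replicated regions numbered 145, 163, 121 and 95. They covered 9.24%, 11.6%, 6.60% and 5.39% of each part. Regions of 10 kb or longer numbered 12, 16, 6 and 5, so the 2 parts nearer the centromere had more of the long ones. Most of the long ones in these 2 parts lay in 2 domains described below. These ran from 2706479 to 2840078 and from 12521907 to 12810523, so the counts show no even trend along the arm. Scores of 2 or more did not follow that order, with 5, 11, 9 and 5 regions. The 30 regions with such scores fell in 18 of the 28 bins and together made up 90.9 kb, or 3.97% of replicated bases.

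Neighbouring regions were often close, and some nearly touched. The median gap was 21.7 kb, with quartiles of 5.20 and 65.4 kb, over 523 gaps. With replicate 1 alone deciding which regions count, that is without replicate 2, the median gap would be 11.3 kb, and with only clusters at or above the median score it would be 43.8 kb. Of the 523 gaps, 61 (11.7%) were under 1 kb and 11 were under 0.1 kb, while 85 were 100 kb or more. The narrowest was 5 bp, between the regions from 17373520 to 17380962 and from 17380968 to 17395806. Few gaps of this kind were bridged by a cluster. A gap without a bridge need not be a break at the same place, since a library may have had no cluster close to it. A cluster of replicate 1 bridged 3 of the 61 gaps under 1 kb, a cluster of replicate 2 bridged 1, and in none did both.

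The widest stretch with no replicated region ran over 438 kb, from 3139974 to 3578326. It held 6 other listed regions, 2 clusters of replicate 2 and none of replicate 1. The next, of 430 kb from 9191629 to 9621906, held 20 other regions, 7 clusters of replicate 1 and 1 of replicate 2. A further 3 stretches were 360 kb (15717577 to 16077923), 343 kb (305340 to 648080) and 328 kb (22363480 to 22691736) long. The highest score of any region inside these 5 stretches was 0.53.

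**Figure D4:**
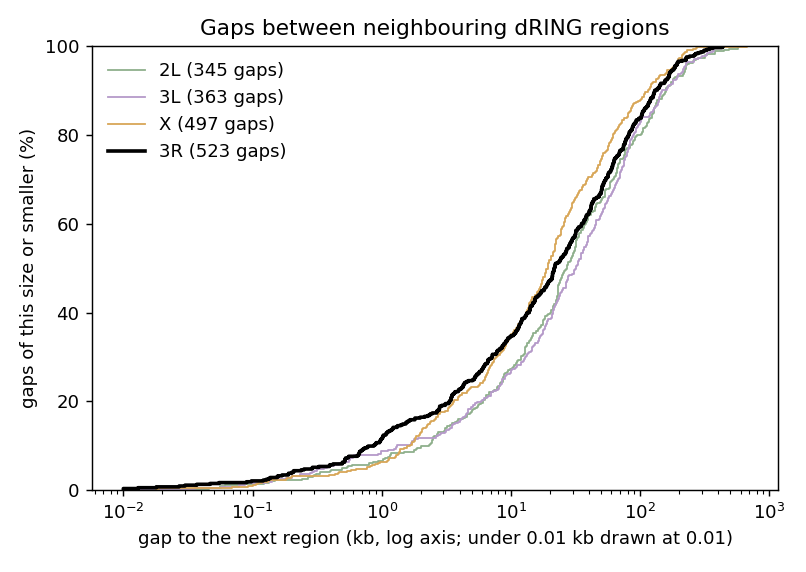
Cumulative percent of gaps between neighbouring replicated regions against gap size (kb, log axis) on arms 3R, 2L, 3L and X, 1 line per arm. On 3R 11.7% of gaps are under 1 kb and 34.6% under 10 kb, and its median of 21.7 kb lies between those of X (19.2 kb) and 2L (26.9 kb).

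Joining of all regions with gaps under 10 kb gave 343 domains on 3R, a definition made with the data in view. Of these, 240 were a single region, 71 were pairs, and 8 had 5 regions or more. Regions in groups of 5 or more had a median length of 5320 bp, and those alone had 2313 bp. They included 20 of the 39 regions of 10 kb or longer, and 3 of the 39 stood alone. Scores of 2 or more occurred in 14 of 240 regions alone, 14 of 219 in groups of 2 to 4 and 2 of 65 in larger groups. The 6 largest domains, by bases covered, held 44 regions and 551 kb, which was 24.1% of all replicated bases, and 21 of the 39 long regions.

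The largest domain, from 12521907 to 12810523, spanned 289 kb with 14 replicated regions and 12 others, and its replicated regions alone were 10.6% of those bases on the arm. Along it, the first 7 replicated regions had series scores of 0.45 to 1.10. Past 12649751 the scores were 1.32, 1.20 and 1.13 over 3 regions up to 12729749, fell to 0.51 in the region from 12729763 to 12737673, and returned to 1.08 in both of the regions that ended at 12750843 and 12802847. Replicate 1 covered 246 kb of the domain and replicate 2 covered 130 kb. Of the replicate 2 bases 98.9% lay inside clusters of replicate 1, while 52.2% of the replicate 1 bases lay inside clusters of replicate 2. The clusters of replicate 1 reached 33.6 kb in length and those of replicate 2 reached 8.22 kb. The covered length of this domain, 243 kb, depended on the rule: it was 107 kb where each library had to cover 50% of a region, and 156 kb with only clusters at or above the median score of their list.

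Within this domain replicate 2 had separate high points. They were the clusters from 12588178 to 12596401 (score 1.67), from 12651293 to 12657013 (1.88), from 12670993 to 12678369 (2.32), from 12704858 to 12709789 (1.83), from 12723609 to 12727376 (1.64) and from 12771948 to 12777892 (1.88). All other replicate 2 clusters there were at 1.31 or lower. The 6 clusters of replicate 1 over the same bases, which were 7.37 to 33.6 kb long, had scores from 1.22 to 1.34. All 29 clusters of replicate 1 in the domain ran from 0.41 to 1.34. Each cluster has a single score, so the values do not show how signal varied inside the long ones.

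The second domain, from 2706479 to 2840078, had 10 replicated regions over 134 kb. Replicate 1 had 21 clusters in it and replicate 2 had 16, which covered 75.6% and 33.0% of the span. Of the replicate 2 bases 96.4% were inside replicate 1 clusters, and 42.1% the other way. The highest point was the replicate 2 cluster with 3.01 given above. The next clusters of replicate 2 were at 1.71 (2760603 to 2764845), 1.44 (2717146 to 2722158) and 1.25 (2737612 to 2741553). The highest of replicate 1 was at 1.70 (2814963 to 2832304). The third domain, from 17250899 to 17303516, was made of 2 of the longest regions, separated by 47 bp. In it a replicate 1 cluster of 35.5 kb ran across that break. The fourth, from 648081 to 699814, was nearly all one region of 47.8 kb, with a 41.6 kb cluster in replicate 1 and a longest cluster of 13.1 kb in replicate 2.

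The fifth domain had another form. From 12031197 to 12085478 it held 8 regions over 54.3 kb, and each library had 8 clusters that matched one to one. Starts of the matched clusters differed by at most 875 bp and ends by at most 914 bp. Here 93.0% of replicate 1 bases were shared by replicate 2, and 97.8% the other way. Its scores were high as well as wide: replicate 2 had 3.23 in the 2.71 kb cluster from 12042524 to 12045230, 2.44 in the cluster from 12053864 to 12059715 and 2.31 across 17.8 kb, and replicate 1 had 2.60, 1.85 and 1.70 at the same places. The sixth, from 6387489 to 6457902, was 7 weak regions with series scores of 0.35 to 0.55 around a single strong one, from 6432882 to 6450503, with 1.41.

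**Figure D5:**
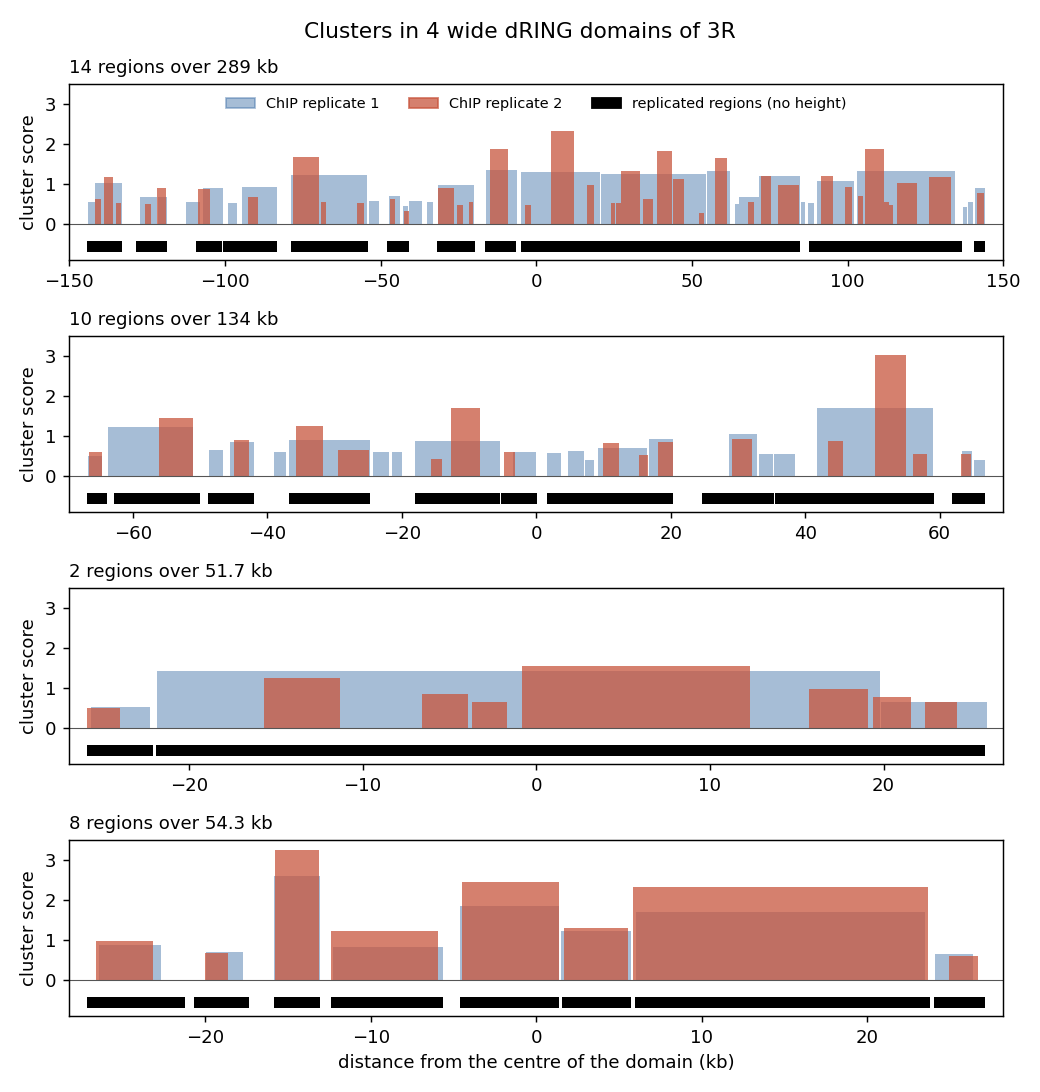
Clusters of replicate 1 (blue) and replicate 2 (red) in 4 of the 5 domains of 3R with the most covered bases (all but the third), as bars over the distance from the centre of the domain (kb), with the cluster score as height and the replicated regions as black bars below 0 (narrow gaps between them are not visible at this size). In each of the upper 3 panels the longest replicate 2 cluster is shorter than the longest of replicate 1, and in the lowest panel the 8 clusters of each library match.

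Set beside the arms 2L, 3L and X, the regions of 3R covered 8.20% of their arm, against 5.77%, 5.49% and 7.82%. There were 18.8 per Mb on 3R, 15.04 on 2L, 14.8 on 3L and 22.2 on X. Long regions made up 7.44% of members on 3R, 6.07% on 2L, 3.02% on 3L and 3.01% on X. Of the 106 on the main arms 3R had 39 (36.8%, exact 95% interval 27.6 to 46.7%, which treats regions as independent). Since 20 of these 39 lay in groups of 5 or more regions, the interval is too narrow and tests no difference between shares. The share of 3R was 24.95% of all replicated regions and 23.2% of the arm length. Of regions with a score of 2 or more, 3R held 30 of 144 (20.8%, 14.5 to 28.4%, again with regions treated as independent). Gaps under 1 kb were 11.7% of all gaps on 3R, 6.67% on 2L, 8.82% on 3L and 6.44% on X. Arm 2R had 6.64% of its length covered, 16.7 regions per Mb, 5.10% long regions and 8.81% of gaps under 1 kb. On 4 the same values were 5.72%, 11.1, 13.3% (2 of 15 regions, a higher percent than on 3R) and 7.14%. These are side by side values with no test, since the regions were chosen from the lists that give them.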

How the data were processed

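Enriched intervals were read from 3 deposited lists, 1 for each of the 2 ChIP libraries and 1 for the whole series. The deposited score of an interval is a value of the authors whose scale is not stated. The submitters' processing notes name Bowtie 0.12.7, and per the file headers positions are in FlyBase release 5. How regions were called, at what threshold, and how the series list was made from the replicates is not stated in the labels or headers. The lists give no read counts, so depth is unknown. The inputs served in making the replicate lists, per the labels, and no input values were analysed here.

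Positions are 1-based. Cover is the percent of a region's bases inside clusters of a library. Where several clusters met a region, the highest score was used. Python 3.11.15, numpy 2.4.6, scipy 1.17.1 and matplotlib 3.10.9 were used, and the overlap, cover and domain counts were tested on simulated data against direct counts. Members and rules were chosen with earlier results of these data known. Named regions are the 15 highest scores, the 15 longest, the 6 largest domains, the 5 widest gaps, the 3 regions with the widest score difference in each direction, the densest and sparsest bins, and the regions nearest the edge of the rule. High replicate 2 clusters inside domains, the narrowest gap and the third densest bin were named after their values were seen. Planned listings of sequence motifs and genes were not made, because no genome or annotation of release 5 was used here.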

Additional observations from a re-analysis of the deposited data

Results flagged for a closer look

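The heterochromatic sequence 3RHet, which the description of arm 3R leaves out, held 5 regions of the series list, of 1010 to 1800 bp and with scores of 0.22 to 0.99. They stand out only as signal in a sequence outside the arm. Replicate 1 had 1 cluster there and replicate 2 had 2, and 1 of the 5 regions was overlapped in both. No control value was set beside them.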

How the results depend on the processing

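Of 41 recomputed values, 23 stayed within 1.5 times of the reported value (counts and bases), within the SD of the values from each replicate alone (medians), or within the SD over regions (cover). The SD for medians came from the same single-replicate settings that it was also used to judge, so it is no independent yardstick for those. With only clusters at or above the median score of their list, 260 regions were left, which by construction are all among the 524. They had 1519509 bp, a median length of 3359.5 bp, a median score of 1.02, a median gap of 43761 bp, 190 domains and a largest domain of 156213 bp. With 50% cover by each replicate the median length was 2472 bp, the median gap 31303 bp and the largest domain 106581 bp, from 12688922 to 12810523. With regions under 1 kb apart merged, the median length was 3171.5 bp and the median gap 28815 bp. With 1 replicate left out, the count was 658 to 826, bases 2527655 to 2910329, the median length 2238.5 to 2340 bp, the median score 0.48 to 0.54, the median gap 11348 to 18008 bp, domains 416 to 434 and the largest domain 243115 to 260089 bp. The largest domain overlapped the reported one in every setting run. The difference in cover was 25.7 points from 5 kb and 38.6 from 15 kb. It needs both libraries, so neither was left out. Apart from the settings' own construction, the cause of these shifts was not tested. No paired analysis was possible because the results come from no test and no input values were analysed here. No cluster was shorter than 1301 bp, and 467 of the 815 regions seen in neither library were. Whether this length limit bears on which regions were met was not tested.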

Other observations

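Of the listed regions on 3R that were not replicated, 2 had a score of 1 or more. The higher, from 1849146 to 1850146, had 3.05, a value that would place it among the 15 strongest, and the other, from 20032926 to 20033926, had 1.42. Both were 1001 bp long, and neither was met by a cluster of either library.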
